A study of Mus musculus with 24 samples.

Results

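The Eph receptors and ephrins examined here were 9 genes, the receptors *Epha2*, *Epha4*, *Ephb2*, *Ephb3* and *Ephb4* and the ligands *Efna1*, *Efna5*, *Efnb1* and *Efnb2*. They were selected by name from the 49315 genes of the count table, which held 22 mouse Eph receptor and ephrin genes in all. Of the 9 genes, 8 had enough reads to be tested and *Epha4* did not. RNA-seq libraries were made from MS03 cells, an immortalized mouse Schwann cell (SC) line from *Nf2* flox/flox animals in which Cre had removed *Nf2*, so every group, DMSO included, was *Nf2*-/-. Cells received DMSO, a FAK kinase inhibitor or a FAK-directed PROTAC for 24 hours, and each of the 8 groups had 3 libraries. At 1 μM the kinase inhibitors were defactinib, VS-4718, GSK2256098 and IN10018 (ifebemtinib). Among the PROTACs, which tether their target to a ubiquitin ligase, PROTAC FAK degrader 1 was used at 1 μM, whereas GSK215 and BSJ-04-146 (written BSJ-04-0146 in the sample titles) were used at 0.1 μM. The comparison asks how the RNA levels of these receptors and ligands differ between FAK-targeting compounds in *Nf2*-deficient SCs. All libraries came from this single line, no unmodified SCs were among them, and the sample titles call the replicates biological without saying that they were separate cultures. If they were not, *P* values measure only the spread between these libraries, which may be technical.

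Eph receptors are receptor tyrosine kinases that bind membrane-attached ephrins on neighboring cells. A-type ephrins are held by a lipid anchor and mainly bind EphA receptors, whereas B-type ephrins span the membrane and mainly bind EphB receptors. Signals run forward into the receptor-bearing cell and in reverse into the ephrin-bearing cell, and they control cell repulsion, adhesion and movement. In injured nerve, ephrin-B on fibroblasts acts on EphB2 of SCs, and the resulting SC sorting runs through Sox2 and N-cadherin. FAK, the product of *Ptk2*, is a nonreceptor kinase that acts below integrins and Eph receptors.

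Total counts per library ranged from 14472462 to 27449516, and the 9 PROTAC libraries (at most 21588406) were all shallower than the other 15 (at least 21654444). Levels are given in CPM, read counts scaled to the TMM-corrected library size. *Nf2* stood at 155 to 193 CPM over the 24 libraries, with 178 to 184 in DMSO, 155 to 162 in GSK215 and 160 to 172 in BSJ-04-146. A gene total cannot show whether exons are missing, so the genotype was not checked by it. *Ptk2* RNA stood at 77.4 to 102 CPM over all libraries. It was 92.9 to 97.7 CPM with DMSO, 95.6 to 102 with PROTAC FAK degrader 1, 77.4 to 78.6 with GSK215 and 78.1 to 81.0 with BSJ-04-146. With the kinase inhibitors it was 83.5 to 92.9 CPM. Since PROTACs act on protein, *Ptk2* RNA does not check those labels. Of 12 SC markers, 11 were tested, and their summed level was 85.1 to 87.2 CPM with DMSO, 92.8 to 99.1 with PROTAC FAK degrader 1, 163 to 179.9 with VS-4718, 305 to 333 with BSJ-04-146 and 336 to 349 with GSK215. The fibroblast sum was 738 to 768 CPM with DMSO, 607 to 625 with PROTAC FAK degrader 1 and 1126 to 1152 with GSK215, most of it *Col1a1* and *Col3a1*. Of the 6 fibroblast markers, *Lum* had no read in any of the 24 libraries and *Dcn* and *Thy1* had at most 3 in each. The 6 macrophage markers summed to 3.53 to 4.20 CPM with DMSO and 10.8 to 11.8 with PROTAC FAK degrader 1, mostly *Cd68*, with *Adgre1* and *Ptprc* at 1 read or less per library. The 6 endothelial markers summed to at most 1.58 CPM, and *Emcn* had no read. The macrophage sum was 6.09 to 7.75 CPM with GSK215 and 7.72 to 9.10 with BSJ-04-146. Of 6 neuron markers only *Map2* had enough reads to be tested, and the neuron sum was 58.8 to 59.6 CPM with DMSO, 70.2 to 77.1 with defactinib, 72.4 to 74.2 with VS-4718, 62.0 to 64.8 with GSK2256098, above the DMSO range and at most 62.1 with IN10018, 55.0 to 58.5 with PROTAC FAK degrader 1, 78.6 to 84.0 with GSK215 and 65.0 to 67.0 with BSJ-04-146. Where these sums moved with a result below, their part in it was not tested. In bulk RNA, fewer cells of a type and less RNA per cell cannot be told apart.

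All 9 genes matched a promoter window in RefSeq (GRCm38.p6), *Efna1* with 2. The 250 bases before the start site are shown for the 5 genes that changed by at least 1.5-fold against DMSO with some compound in the main analysis and have 1 window, since these are the members the results turn on. Capitals mark matches to TGANTCA (AP-1), GGAATG (TEAD), ACGTG (hypoxia response core) or CACGTG (E-box, which contains ACGTG), sought on both strands.
Epha2, chr4:141300971-141301220, plus strand: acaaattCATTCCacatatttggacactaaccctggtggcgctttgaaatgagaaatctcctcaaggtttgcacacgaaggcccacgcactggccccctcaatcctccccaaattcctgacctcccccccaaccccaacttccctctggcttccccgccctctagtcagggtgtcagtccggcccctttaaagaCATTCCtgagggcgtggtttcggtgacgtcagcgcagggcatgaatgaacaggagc
Ephb3, chr16:21204545-21204794, plus strand: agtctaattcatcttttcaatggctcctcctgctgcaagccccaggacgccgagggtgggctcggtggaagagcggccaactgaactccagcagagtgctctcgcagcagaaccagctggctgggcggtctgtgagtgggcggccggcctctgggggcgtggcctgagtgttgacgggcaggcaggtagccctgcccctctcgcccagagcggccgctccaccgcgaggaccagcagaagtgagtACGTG
Efna5, chr17:62881318-62881567, minus strand: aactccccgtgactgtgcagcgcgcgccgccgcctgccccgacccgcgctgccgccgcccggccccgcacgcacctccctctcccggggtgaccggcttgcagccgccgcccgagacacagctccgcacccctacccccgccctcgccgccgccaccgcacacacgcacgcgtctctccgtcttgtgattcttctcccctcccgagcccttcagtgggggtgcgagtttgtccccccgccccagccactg
Efnb1, chrX:99135811-99136060, plus strand: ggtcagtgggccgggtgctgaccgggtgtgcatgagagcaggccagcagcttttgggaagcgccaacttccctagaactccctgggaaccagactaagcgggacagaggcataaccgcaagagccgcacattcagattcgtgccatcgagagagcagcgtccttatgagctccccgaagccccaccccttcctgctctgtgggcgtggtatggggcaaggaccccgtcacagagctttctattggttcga
Efnb2, chr8:8661243-8661492, minus strand: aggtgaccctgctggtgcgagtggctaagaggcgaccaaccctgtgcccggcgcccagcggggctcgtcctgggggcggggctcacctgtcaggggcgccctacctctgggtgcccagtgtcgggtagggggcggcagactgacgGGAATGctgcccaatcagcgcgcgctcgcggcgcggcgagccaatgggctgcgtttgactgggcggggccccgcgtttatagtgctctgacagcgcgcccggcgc
The *Epha2* window held 2 TEAD matches, which began 243 and 56 bases before the start, and the *Efnb2* window held 1, at 105 bases. *Ephb3* had 1 ACGTG match, 5 bases before the start, and *Efna5* and *Efnb1* had no match to any of the motifs. Beyond the windows shown, *Epha4* had 1 ACGTG match 112 bases before its start, and *Ephb2*, *Ephb4* and both *Efna1* windows had none. Over all 32851 promoter windows of this length, 12.6% held GGAATG, 16.6% ACGTG, 6.75% TGANTCA and 6.02% CACGTG. The GC content was 74.8% for *Efna5*, 72.0% for *Efnb2* and 55.6% for *Epha2*, against a median of 52.4% over all windows. A match is a run of letters and not a shown binding site.

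Levels of different genes were compared per kb of exon. *Epha2* was the most abundant family member in DMSO, with 42.3 ± 0.564 CPM per kb (SD, n = 3), followed by the ligand *Efnb2* with 26.0 ± 0.625, the receptor *Ephb4* with 18.7 ± 0.294 and the ligand *Efna5* with 13.6 ± 0.266. *Efna1* (6.21 ± 0.568), *Ephb2* (3.96 ± 0.125), *Efnb1* (2.83 ± 0.0999) and *Ephb3* (2.47 ± 0.143) were lower on the same scale. This order depends on the exon length, taken as the union over all annotated transcripts, and which transcripts were expressed was not determined. The union was 12.6 kb for *Ephb2* and 4.03 kb for *Efna5*. Before division these genes stood at 49.9 and 54.7 CPM in DMSO. Among family genes that are not members, *Efna4* (3.91 ± 0.297 CPM per kb) and *Efnb3* (2.28 ± 0.0599) were at a level like that of the lower members. No library held more than 7 counts of *Epha3*, *Epha10* or *Ephb1*, or more than 2 of *Epha5* or *Epha6*. *Epha4*, a receptor that binds both ligand classes, had 0 to 4 counts per library and 31 counts over all 24 libraries, so no difference in it was detectable at this depth.

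**Figure D1:**
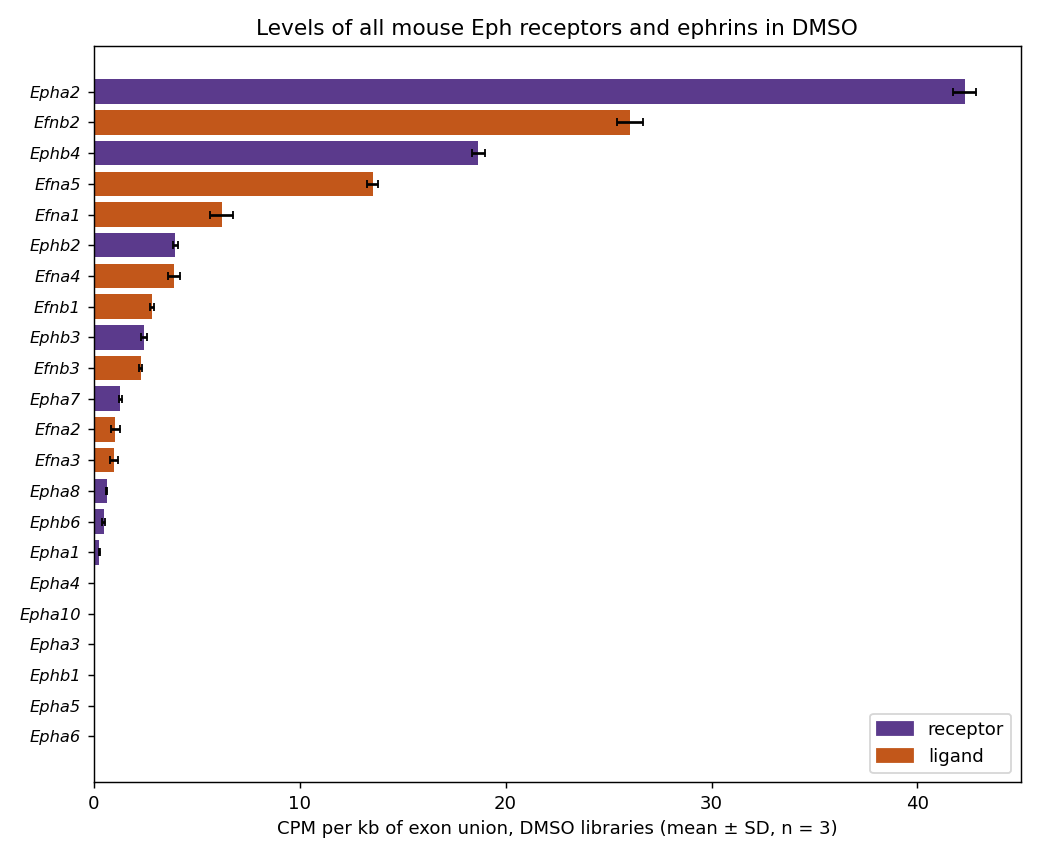
Levels of the 22 mouse Eph receptor and ephrin genes in DMSO, in CPM per kb of exon union (bars, mean of 3 libraries; error bars, SD), with receptors in purple and ligands in orange. *Epha2* stood highest at 42.3 CPM per kb, and 6 receptors, *Epha4* among them, lie too close to 0 to be seen.

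*Epha2* (ENSMUSG00000006445, chr4:141301240-141329384, plus strand, GRCm38) encodes the EphA receptor that mainly binds ephrin-A ligands. Its level was 195, 198 and 200.2 CPM in the DMSO libraries and 252, 243 and 228 with VS-4718, an increase of 1.22-fold (log2 0.29 ± 0.037, adjusted p = 4.40e-08). Under the PROTACs it was 149, 143 and 139 CPM (PROTAC FAK degrader 1), 147, 156 and 153 CPM (GSK215) and 126, 129 and 132 CPM (BSJ-04-146). All 9 PROTAC libraries lay below all 15 others. The decreases against DMSO were 1.38-fold (log2 -0.46 ± 0.039, adjusted p = 1.26e-13), 1.30-fold (log2 -0.38 ± 0.039, adjusted p = 6.75e-11) and 1.53-fold (log2 -0.62 ± 0.039, adjusted p = 1.24e-16), respectively. All 3 calls remained when every library was thinned to the smallest total. Defactinib gave 202, 210.2 and 222 CPM, GSK2256098 206, 207 and 206 and IN10018 184, 174 and 193. None of these 3 passed the test against DMSO (log2 0.10 ± 0.037, adjusted p = 0.0538; 0.062 ± 0.037, adjusted p = 0.325; -0.11 ± 0.038, adjusted p = 0.0538). The call was gained for defactinib without defactinib replicate 1 (adjusted p = 0.0218) and for IN10018 without IN10018 replicate 3 (adjusted p = 0.0187). In the order of the 8 group means, BSJ-04-146 was lowest and VS-4718 highest, and only PROTAC FAK degrader 1 with GSK215 and GSK2256098 with defactinib were neighbors whose libraries overlapped.

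*Ephb2* (ENSMUSG00000028664, chr4:136647539-136835988, minus strand) encodes the EphB receptor that acts in SC sorting. It was 51.6, 48.4 and 49.8 CPM with DMSO, against 60.1, 59.9 and 63.8 with defactinib, 60.4, 62.2 and 61.1 with VS-4718 and 59.5, 61.0 and 63.0 with GSK2256098. Each of these 9 inhibitor libraries lay above every DMSO library. The increases were 1.23-fold (log2 0.30 ± 0.045, adjusted p = 4.16e-06), 1.23-fold (log2 0.30 ± 0.045, adjusted p = 9.54e-07) and 1.23-fold (log2 0.29 ± 0.045, adjusted p = 1.05e-05). PROTAC FAK degrader 1 raised *Ephb2* to 58.6, 55.6 and 54.4 CPM (log2 0.17 ± 0.046, adjusted p = 0.00123) and BSJ-04-146 to 52.3, 58.4 and 59.4 CPM (log2 0.19 ± 0.047, adjusted p = 9.21e-04). GSK215 libraries, at 51.1, 54.8 and 56.3 CPM, overlapped with DMSO, and the call there (log2 0.12 ± 0.047, adjusted p = 0.0303) was lost without DMSO replicate 2 or 3 or GSK215 replicate 2 or 3 (adjusted p = 0.0699 to 0.186). IN10018 libraries, at 50.9, 53.1 and 50.2 CPM, did not pass (log2 0.043 ± 0.046, adjusted p = 0.613). The whole range of group means was 49.9 to 61.3 CPM, and the only gap between neighboring groups lay between BSJ-04-146 and GSK2256098.

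*Ephb3* (ENSMUSG00000005958, chr16:21204755-21223305, plus strand) encodes another receptor for B-type ephrins. The DMSO libraries held 15.3, 17.0 and 16.9 CPM and the GSK215 libraries 28.4, 28.2 and 25.7, an increase of 1.67-fold (log2 0.74 ± 0.063, adjusted p = 6.10e-13). BSJ-04-146 gave 22.4, 20.3 and 21.2 CPM, 1.30-fold above DMSO (log2 0.38 ± 0.066, adjusted p = 5.91e-06). GSK215 was the highest group and did not overlap with any other, and it also had the highest fibroblast and SC marker sums. VS-4718 (20.8, 19.3 and 19.6 CPM, log2 0.28 ± 0.063, adjusted p = 4.11e-04) and GSK2256098 (18.8, 20.1 and 20.7 CPM, log2 0.27 ± 0.064, adjusted p = 0.00269) also raised it. With defactinib it was 18.0, 19.6 and 19.5 CPM (log2 0.21 ± 0.064, adjusted p = 0.0138), a call lost without DMSO replicate 1, defactinib replicate 2 or defactinib replicate 3 (adjusted p = 0.0611 to 0.108). IN10018 (15.0, 15.4 and 15.7 CPM, log2 -0.10 ± 0.067, adjusted p = 0.392) did not pass. PROTAC FAK degrader 1 gave 14.6, 15.4 and 14.2 CPM, which overlapped with DMSO, and its decrease (log2 -0.15 ± 0.068, adjusted p = 0.0448) was not past the threshold without DMSO replicate 2 or 3 or PROTAC FAK degrader 1 replicate 1 or 3 (adjusted p = 0.124 to 0.167) or under 6 of 7 other settings.

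*Ephb4* (ENSMUSG00000029710, chr5:137350109-137378669, plus strand) encodes the receptor best known for its pairing with ephrin-B2 in vessels. *Zan* is annotated over part of the same region on the opposite strand, and the strand setting of the counting is not given in the sources used here. Levels were 85.7, 88.2 and 86.2 CPM with DMSO and 69.6, 71.5 and 71.6 with PROTAC FAK degrader 1, a decrease of 1.22-fold (log2 -0.29 ± 0.040, adjusted p = 3.05e-08). The degrader libraries lay below all other libraries. Defactinib (101, 97.6 and 107 CPM, log2 0.23 ± 0.038, adjusted p = 1.28e-05) and VS-4718 (102, 102 and 99.3 CPM, log2 0.22 ± 0.038, adjusted p = 7.80e-06) raised it without overlap with DMSO. For GSK2256098 the libraries held 92.3, 96.7 and 98.7 CPM (log2 0.15 ± 0.038, adjusted p = 0.00785), and the call was lost without DMSO replicate 1 or GSK2256098 replicate 3 (adjusted p = 0.0513 to 0.0824). GSK215 gave 91.2, 93.4 and 95.9 CPM (log2 0.11 ± 0.039, adjusted p = 0.0160), a call lost without DMSO replicate 1 or 3 or GSK215 replicate 3 (adjusted p = 0.0523 to 0.0982). BSJ-04-146, at 91.5, 95.7 and 88.9 CPM, did not pass (log2 0.086 ± 0.039, adjusted p = 0.0616) but did without its replicate 3 (adjusted p = 0.0396) and with library totals alone (log2 0.19, adjusted p = 4.96e-05). IN10018, at 85.1, 81.0 and 86.8 CPM, overlapped with DMSO and did not pass (log2 -0.041 ± 0.039, adjusted p = 0.558).

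*Efna1* (ENSMUSG00000027954, chr3:89271733-89281142, minus strand) encodes ephrin-A1, the main ligand of EphA2. It held 11.8, 10.2 and 12.2 CPM with DMSO and 16.7, 17.9 and 17.0 with PROTAC FAK degrader 1, an increase of 1.52-fold (log2 0.60 ± 0.10, adjusted p = 1.26e-06). All 3 degrader libraries lay above the other 21. No other compound passed for *Efna1*: GSK215 (11.3, 11.4 and 11.3 CPM), VS-4718 (10.6, 11.6 and 10.3), GSK2256098 (12.6, 11.6 and 10.3), IN10018 (9.88, 10.2 and 9.16) and BSJ-04-146 (9.43, 11.8 and 10.5) all overlapped with DMSO. Defactinib libraries spread from 8.90 to 13.9 CPM, the widest spread of any group for this gene. The 95% intervals of the log2 change against DMSO were -0.20 to 0.21 for defactinib, -0.28 to 0.14 for VS-4718, -0.19 to 0.23 for GSK2256098, -0.43 to -0.0024 for IN10018, -0.22 to 0.22 for GSK215 and -0.32 to 0.12 for BSJ-04-146. *Efna1* had 160 to 363 counts per library, the fewest of the tested members.

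*Efna5* (ENSMUSG00000048915, chr17:62604184-62881317, minus strand) encodes ephrin-A5, a guidance cue for growing axons. Among the members it had the largest decrease with any compound. DMSO libraries held 55.9, 53.9 and 54.3 CPM, whereas PROTAC FAK degrader 1 libraries held 27.1, 29.2 and 30.8, a decrease of 1.89-fold (log2 -0.92 ± 0.052, adjusted p = 9.63e-19). IN10018 also lowered it, to 48.1, 44.2 and 45.2 CPM, 1.19-fold below DMSO (log2 -0.25 ± 0.048, adjusted p = 2.46e-04). These 2 groups did not overlap with each other or with the remaining 6. Defactinib raised *Efna5* to 73.4, 67.8 and 72.6 CPM, 1.30-fold above DMSO (log2 0.38 ± 0.045, adjusted p = 3.40e-08). GSK215 raised it to 78.5, 70.7 and 72.7 CPM, 1.35-fold above DMSO (log2 0.43 ± 0.046, adjusted p = 1.65e-10). The defactinib and GSK215 libraries lay above all others and overlapped with each other. No call was made for VS-4718 (55.6, 56.9 and 58.1 CPM, log2 0.057 ± 0.045, adjusted p = 0.345), GSK2256098 (58.9, 59.2 and 61.1 CPM, log2 0.13 ± 0.046, adjusted p = 0.0588) or BSJ-04-146 (54.0, 52.2 and 57.5 CPM, log2 -0.0029 ± 0.048, adjusted p = 0.966).

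*Efnb1* (ENSMUSG00000031217, chrX:99136130-99148991, plus strand) encodes the transmembrane ligand ephrin-B1. It showed the largest increase of any member. DMSO libraries held 9.54, 9.63 and 10.2 CPM, GSK215 libraries 20.2, 19.8 and 20.8 and BSJ-04-146 libraries 17.3, 19.9 and 17.7. The 6 libraries of these PROTACs lay above all other 18, with 2.07-fold more than DMSO for GSK215 (log2 1.05 ± 0.088, adjusted p = 3.66e-13) and 1.88-fold more for BSJ-04-146 (log2 0.91 ± 0.090, adjusted p = 2.86e-11). The same 6 libraries had the highest SC marker sums, 305 to 333 and 336 to 349 CPM. Defactinib (13.2, 12.0 and 13.9 CPM, log2 0.42 ± 0.091, adjusted p = 6.39e-04), VS-4718 (14.1, 12.8 and 11.8 CPM, log2 0.40 ± 0.090, adjusted p = 4.24e-04) and GSK2256098 (11.7, 13.0 and 14.7 CPM, log2 0.43 ± 0.091, adjusted p = 0.00112) raised it less, again with all libraries above DMSO. PROTAC FAK degrader 1 (10.9, 10.4 and 9.30 CPM, log2 0.064 ± 0.10, adjusted p = 0.577) and IN10018 (9.78, 8.10 and 7.67 CPM, log2 -0.20 ± 0.10, adjusted p = 0.190) overlapped with DMSO and did not pass.

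*Efnb2* (ENSMUSG00000001300, chr8:8617434-8661242, minus strand) encodes ephrin-B2, the preferred ligand of EphB4. Its annotated span also holds 3 predicted genes on the same strand, so the assignment of some reads is uncertain. The 6 endothelial markers, cells known for this ligand, stayed at or under 1.58 CPM in all libraries. DMSO libraries held 174, 179.7 and 182 CPM and PROTAC FAK degrader 1 libraries 107, 107 and 102, a decrease of 1.69-fold (log2 -0.76 ± 0.039, adjusted p = 8.17e-20). The degrader libraries lay below all others. Defactinib raised it to 222, 211 and 239 CPM (log2 0.33 ± 0.037, adjusted p = 1.59e-08), VS-4718 to 237, 236 and 231 (log2 0.39 ± 0.037, adjusted p = 2.39e-11) and GSK2256098 to 219, 231 and 233 (log2 0.35 ± 0.037, adjusted p = 5.17e-09). GSK215 also raised it, to 224, 211 and 211 CPM (log2 0.27 ± 0.038, adjusted p = 1.01e-07). The 12 libraries of these 4 compounds lay above the other 12. BSJ-04-146 lowered it to 156, 157 and 169.8 CPM, 1.11-fold below DMSO (log2 -0.15 ± 0.038, adjusted p = 9.79e-04), a call that was lost when libraries were scaled by their totals alone (log2 -0.042, adjusted p = 0.376). IN10018 libraries, at 171, 165 and 165 CPM, lay below DMSO without passing (log2 -0.10 ± 0.038, adjusted p = 0.0801).

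**Figure D2:**
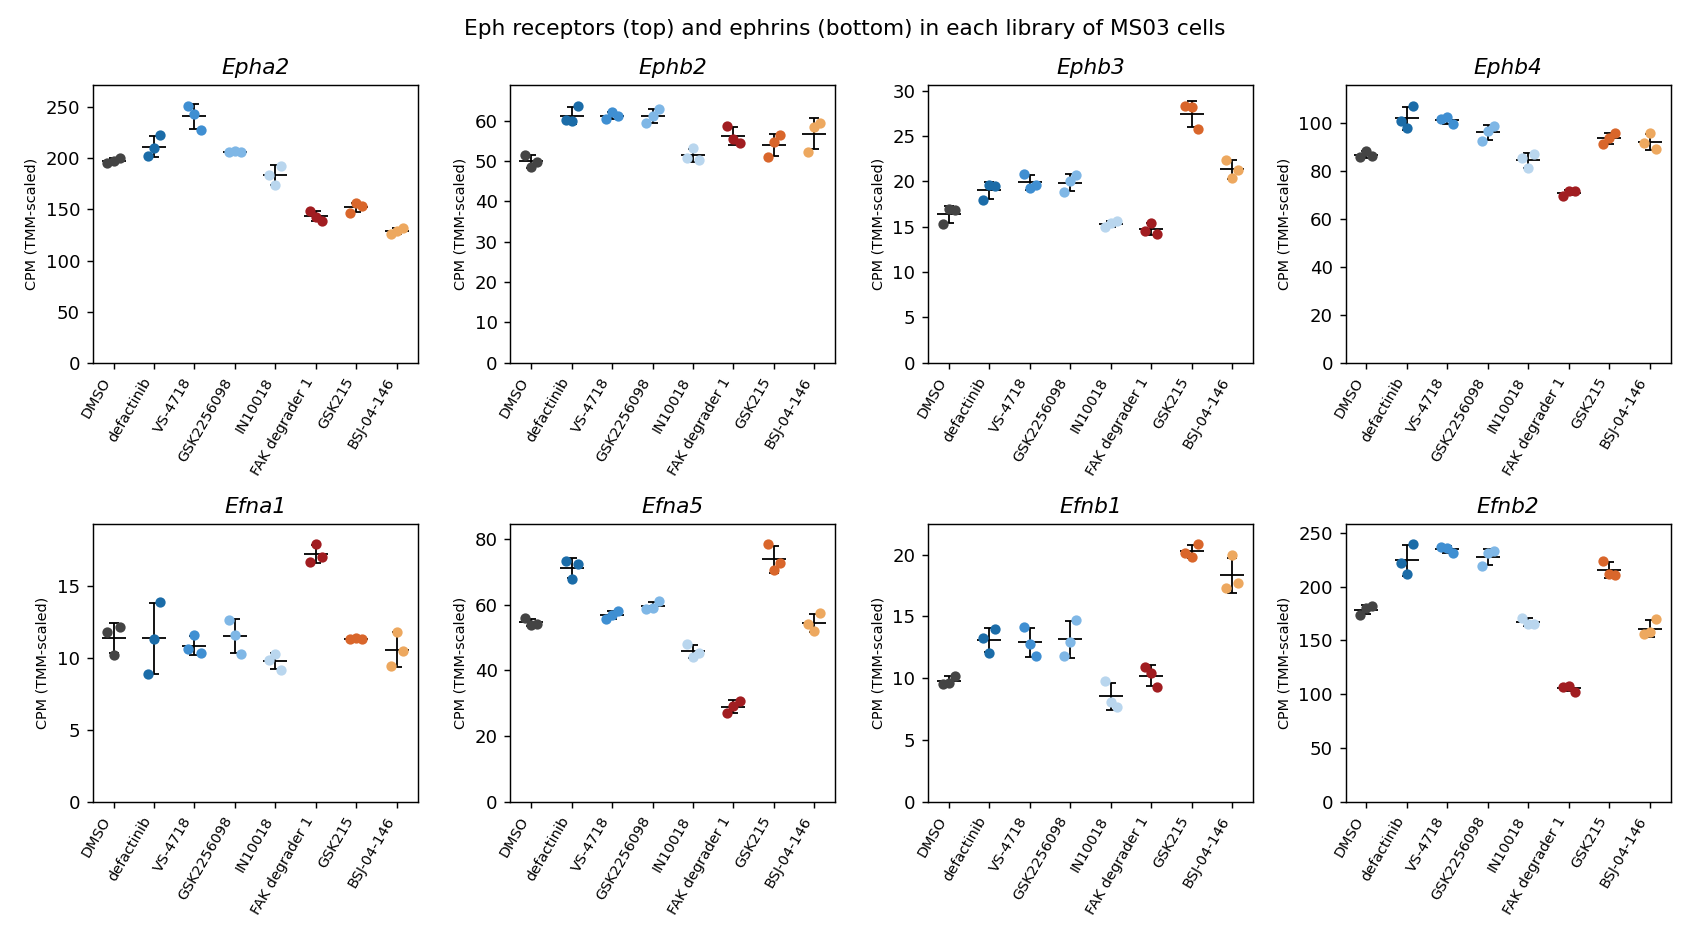
Level of each tested receptor (top) and ligand (bottom) in TMM-scaled CPM; points are single libraries, and black lines are the mean and SD of the 3 libraries of a group. *Efna5* and *Efnb2* are lowest with PROTAC FAK degrader 1 (27.1 to 30.8 and 102 to 107 CPM), and *Efnb1* is highest with GSK215 (19.8 to 20.8 CPM).

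Read by compound, the 3 inhibitors defactinib, VS-4718 and GSK2256098 raised most members by a small amount. Defactinib raised 6 of the 8 tested members and lowered none, where 11.4% of all 16070 tested genes rose and 11.0% fell (22.4% in either direction). VS-4718 raised 6 and lowered none (all genes, 20.4% up and 18.9% down), and GSK2256098 raised 5 and lowered none (6.36% and 6.09%). In either direction, 39.2% of all genes passed with VS-4718 and 12.5% with GSK2256098. The median log2 change of the 8 members was 0.27 with defactinib, 0.28 with VS-4718 and 0.21 with GSK2256098, against -0.0044, 0.0048 and 0.0026 over all tested genes. *Ephb2*, *Ephb3*, *Ephb4*, *Efnb1* and *Efnb2*, which are all the B-type members, rose with each of the 3 compounds. In the main analysis, *Epha2* rose among these 3 only with VS-4718 and *Efna5* only with defactinib. *Epha2* with defactinib and *Efna5* with GSK2256098 passed as higher with library totals alone and with only the compared groups fitted. No member reached a 1.5-fold change with any of the 4 kinase inhibitors. Of all genes, 1.65% did so with defactinib, 5.56% with VS-4718, 0.778% with GSK2256098 and 0.660% with IN10018. IN10018 lowered *Efna5* and raised no member (all genes, 6.44% up and 6.85% down, 13.3% in either direction), with a median log2 change of -0.10 against 0.0035. The marker sums moved with the same 3 inhibitors. The SC sum was 115 to 122 CPM with defactinib, 163 to 179.9 with VS-4718 and 117 to 121 with GSK2256098, against 85.1 to 87.2 with DMSO and 90.0 to 91.5 with IN10018. The fibroblast sum was 852 to 949, 970.2 to 1021 and 856 to 916 CPM, against 738 to 768 with DMSO and 715 to 765 with IN10018, and the part of either in the members' changes was not tested. All 7 comparisons used the same DMSO libraries and are therefore not independent of each other.

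The 3 PROTACs were used at different doses and are given side by side. PROTAC FAK degrader 1 raised 2 members, *Efna1* and *Ephb2*, and lowered 5, *Efna5*, *Efnb2*, *Epha2*, *Ephb4* and *Ephb3* (all genes, 34.1% up and 32.7% down). Of these, *Efna1*, *Efna5* and *Efnb2* changed by at least 1.5-fold, as did 30.8% of all genes. GSK215 raised 6 members and lowered *Epha2* (all genes, 27.4% up and 27.2% down), with *Efnb1* and *Ephb3* past 1.5-fold (15.7%). BSJ-04-146 raised *Efnb1*, *Ephb3* and *Ephb2* and lowered *Epha2* and *Efnb2* (all genes, 27.7% up and 26.9% down), with *Efnb1* and *Epha2* past 1.5-fold (16.1%). *Epha2* with BSJ-04-146 was under 1.5-fold (0.58 on the log2 scale) with library totals alone (log2 -0.51). *Efna1* with PROTAC FAK degrader 1 was under it without DMSO replicate 2 (log2 0.53) or PROTAC FAK degrader 1 replicate 2 (0.57), with thinned libraries (0.55) and with limma-trend (0.47), and all of these changes still passed the test. Median log2 changes of the members were -0.22, 0.19 and 0.041, against 0.0045, 0.021 and 0.018 over all genes. In either direction the members called were 7 of 8 with PROTAC FAK degrader 1 (66.8% of all genes), 7 of 8 with GSK215 (54.7%) and 5 of 8 with BSJ-04-146 (54.6%), and with most genes called these counts were not read as a result about the members. When libraries were scaled by their totals alone, the median of all genes shifted to 0.14 for GSK215 and 0.13 for BSJ-04-146, and calls over all genes went from 4407 higher and 4379 lower to 6190 and 2867 for GSK215, from 4451 and 4320 to 6018 and 2966 for BSJ-04-146, and from 3273 and 3030 to 4015 and 2394 for VS-4718. The same scaling moved them from 1828 and 1766 to 2063 and 1360 for defactinib, from 1022 and 979 to 1242 and 808 for GSK2256098, from 1035 and 1101 to 1197 and 959 for IN10018, and from 5484 and 5257 to 6280 and 4458 for PROTAC FAK degrader 1.

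**Figure D3:**
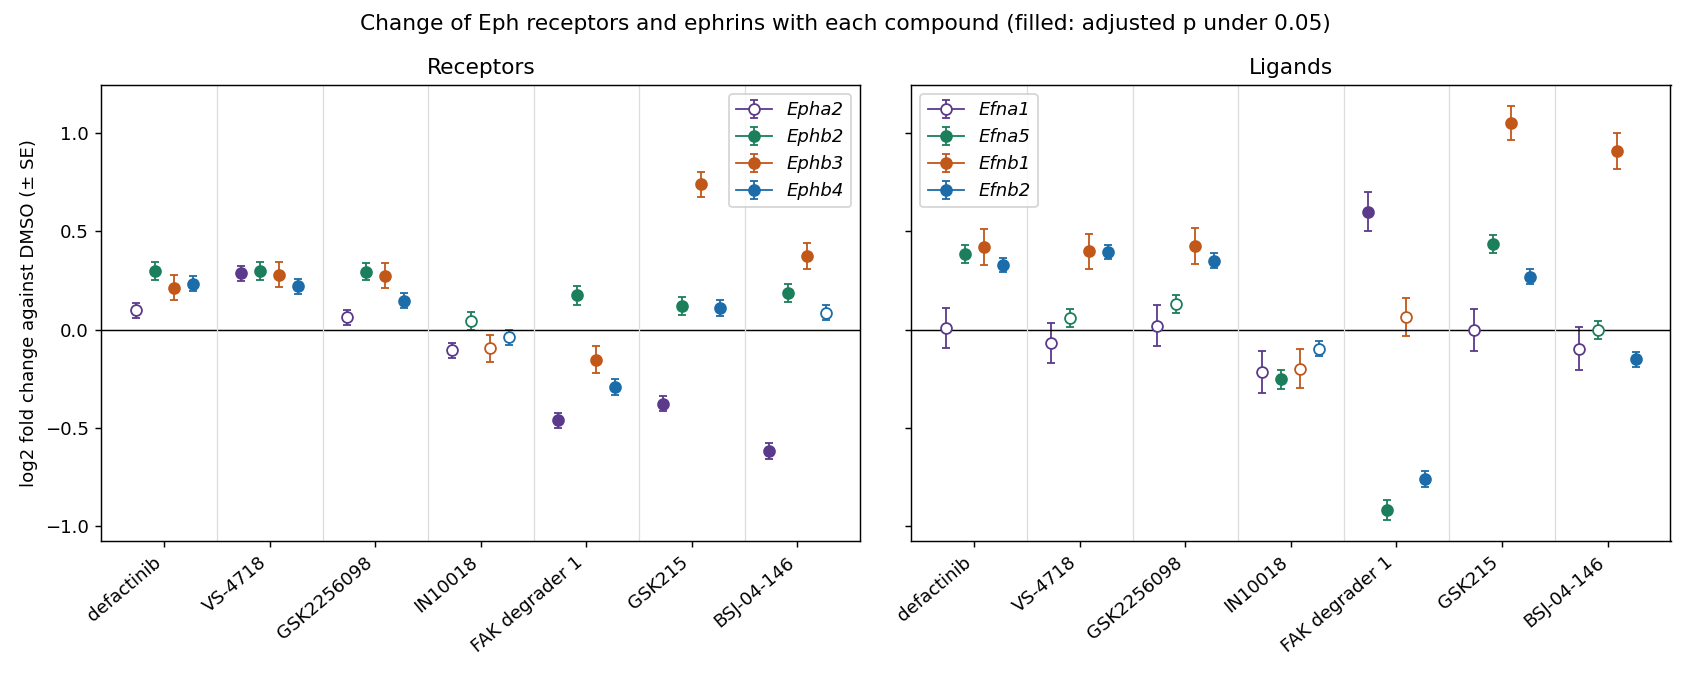
Log2 fold change of each tested receptor (left) and ligand (right) with each compound against DMSO, with SE; filled points passed edgeR's quasi-likelihood test (adjusted p under 0.05) and open points did not. *Efnb1* reached 1.05 with GSK215 and *Efna5* -0.92 with PROTAC FAK degrader 1.

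Compounds were compared directly only at equal dose, in 10 pairs at 1 μM and 1 pair at 0.1 μM, which gave 88 member tests, with p-values adjusted over all genes within each pair. Among defactinib, VS-4718 and GSK2256098, the counts of members called were below or close to the share of all genes and were not read as a result about the members. VS-4718 exceeded defactinib in *Epha2* by 1.14-fold (log2 0.19 ± 0.037, adjusted p = 8.69e-05) and was below it in *Efna5* by 1.25-fold (log2 -0.33 ± 0.044, adjusted p = 1.98e-07), which made 2 of 8 members against 34.0% of all genes (18.0% higher and 16.0% lower). GSK2256098 was below defactinib in *Efna5* only (log2 -0.26 ± 0.045, adjusted p = 9.63e-05; all genes, 5.89% higher and 5.59% lower, 11.5% together) and below VS-4718 in *Epha2* only (log2 -0.22 ± 0.037, adjusted p = 9.84e-06; all genes, 12.8% and 14.3%, 27.1% together, or 2056 higher and 2299 lower genes, which became 1669 and 2849 with library totals alone). Intervals of the log2 difference follow for the other members, each a 95% interval with no adjustment for the number of tests. For *Ephb2* it was -0.090 to 0.088 for VS-4718 against defactinib, -0.093 to 0.087 for GSK2256098 against defactinib and -0.091 to 0.087 for GSK2256098 against VS-4718. For *Efnb2* these intervals were -0.0095 to 0.14, -0.053 to 0.10 and -0.12 to 0.031, and for *Efnb1*, with fewer reads, -0.20 to 0.15, -0.17 to 0.18 and -0.15 to 0.20. *Ephb3* gave -0.058 to 0.19, -0.064 to 0.19 and -0.13 to 0.12, *Ephb4* -0.088 to 0.063, -0.16 to -0.011 and -0.15 to 5.9e-04, and *Efna1* -0.28 to 0.13, -0.20 to 0.22 and -0.12 to 0.30. The remaining intervals were -0.11 to 0.039 for *Epha2* in GSK2256098 against defactinib and -0.021 to 0.16 for *Efna5* in GSK2256098 against VS-4718.

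IN10018 stood below the other 3 kinase inhibitors. It was lower in 7 of 8 members, all but *Efna1*, against defactinib (16.6% of all genes lower and 17.9% higher, 34.5% together, or 2667 lower and 2881 higher genes, which became 2814 and 2672 with library totals alone), VS-4718 (21.3% and 19.6%, 40.9% together) and GSK2256098 (11.2% and 9.78%, 20.9% together). With library totals alone, the VS-4718 pair went from 3420 lower and 3147 higher genes to 3951 and 2681. The GSK2256098 pair went from 1794 and 1572 to 1872 and 1497. The IN10018 libraries were also below those of the other 3 inhibitors in the SC sum (90.0 to 91.5 against a lowest value of 115 CPM) and in the fibroblast sum (715 to 765 against a lowest value of 852 CPM), whose part in the members' differences was not tested. In *Efnb2* the difference was 1.34-fold against defactinib (log2 -0.43 ± 0.037, adjusted p = 1.19e-11), 1.41-fold against VS-4718 (log2 -0.49 ± 0.037, adjusted p = 6.64e-14) and 1.36-fold against GSK2256098 (log2 -0.45 ± 0.037, adjusted p = 4.29e-12). *Efnb1* was lower by 1.54-fold, 1.51-fold and 1.54-fold in the same pairs (adjusted p = 1.71e-06, 1.82e-06 and 3.11e-06). *Efna5* was lower by 1.56-fold, 1.24-fold and 1.30-fold (adjusted p = 1.00e-13, 9.02e-07 and 6.42e-08). Among the receptors, the difference from defactinib was 1.19-fold in *Ephb2*, 1.24-fold in *Ephb3*, 1.21-fold in *Ephb4* and 1.15-fold in *Epha2*. For *Efna1* the intervals of the log2 difference were -0.44 to -0.0092, -0.37 to 0.067 and -0.45 to -0.021, and none passed after adjustment (adjusted p = 0.101, 0.282 and 0.117).

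PROTAC FAK degrader 1, used at the same 1 μM, was lower than defactinib, VS-4718 and GSK2256098 in 7 members and higher in *Efna1*. Of all genes, 34.0%, 34.3% and 33.6% were lower in these pairs and 34.9%, 34.6% and 34.1% higher, together 68.9%, 68.9% and 67.6%. The degrader libraries were also below those of the 3 inhibitors in the SC sum (92.8 to 99.1 against a lowest value of 115 CPM) and the fibroblast sum (607 to 625 against a lowest value of 852 CPM) and above them in the macrophage sum (10.8 to 11.8 against at most 6.13 CPM), whose part in this was not tested. The largest differences were in *Efna5*, 2.46-fold below defactinib (log2 -1.30 ± 0.050, adjusted p = 5.58e-24), and in *Efnb2*, 2.22-fold below VS-4718 (log2 -1.15 ± 0.039, adjusted p = 6.70e-26). The smallest were in *Ephb2*, with log2 differences of -0.12, -0.12 and -0.12. These *Ephb2* calls were lost without PROTAC FAK degrader 1 replicate 2 or 3 or without replicate 3 of the inhibitor in question (adjusted p = 0.0573 to 0.118, 0.0502 to 0.134 and 0.0684 to 0.117). Against IN10018, the degrader was lower in *Efna5*, *Efnb2*, *Epha2* and *Ephb4* and higher in *Efna1*, *Efnb1* and *Ephb2* (all genes, 31.1% lower and 32.4% higher, 63.5% together). *Efna1* differed by 1.76-fold (log2 0.82 ± 0.10, adjusted p = 5.97e-09) and *Efna5* by 1.58-fold in the other direction (log2 -0.66 ± 0.053, adjusted p = 5.81e-14). The *Efnb1* call (log2 0.26 ± 0.10, adjusted p = 0.0219) came with overlapping libraries and was lost without IN10018 replicate 2 or 3 or PROTAC FAK degrader 1 replicate 1 or 2 (adjusted p = 0.0555 to 0.129). The *Ephb2* call (log2 0.13 ± 0.047, adjusted p = 0.0150) was lost without IN10018 replicate 3 or PROTAC FAK degrader 1 replicate 1 (adjusted p = 0.0556 to 0.0879). *Ephb3* did not differ by the test, with an interval of -0.20 to 0.084.

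At 0.1 μM, BSJ-04-146 was lower than GSK215 in 4 members and higher in none (all genes, 9.88% lower and 12.6% higher, 22.5% together). The 1588 lower and 2027 higher genes became 1767 and 1802 with library totals alone. *Efna5* was 1.35-fold lower (log2 -0.44 ± 0.048, adjusted p = 5.58e-09), *Efnb2* 1.34-fold (log2 -0.42 ± 0.039, adjusted p = 1.02e-10), *Ephb3* 1.29-fold (log2 -0.36 ± 0.064, adjusted p = 3.91e-05) and *Epha2* 1.18-fold (log2 -0.24 ± 0.041, adjusted p = 2.23e-05). No overlap between the libraries of both compounds was seen in these 4, which is a description only. The 4 were picked by the test, and the share of all genes without overlap was not counted. The libraries also did not overlap in the fibroblast sum (869 to 913 CPM with BSJ-04-146 and 1126 to 1152 with GSK215) or the SC sum (305 to 333 and 336 to 349 CPM). The part of these sums in the differences was not tested. Intervals of the log2 difference were -0.032 to 0.16 for *Ephb2*, -0.10 to 0.057 for *Ephb4*, -0.33 to 0.13 for *Efna1* and -0.31 to 0.028 for *Efnb1*. Because PROTAC FAK degrader 1 was used at 10 times the dose of these PROTACs, no test was made between them.

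**Figure D4:**
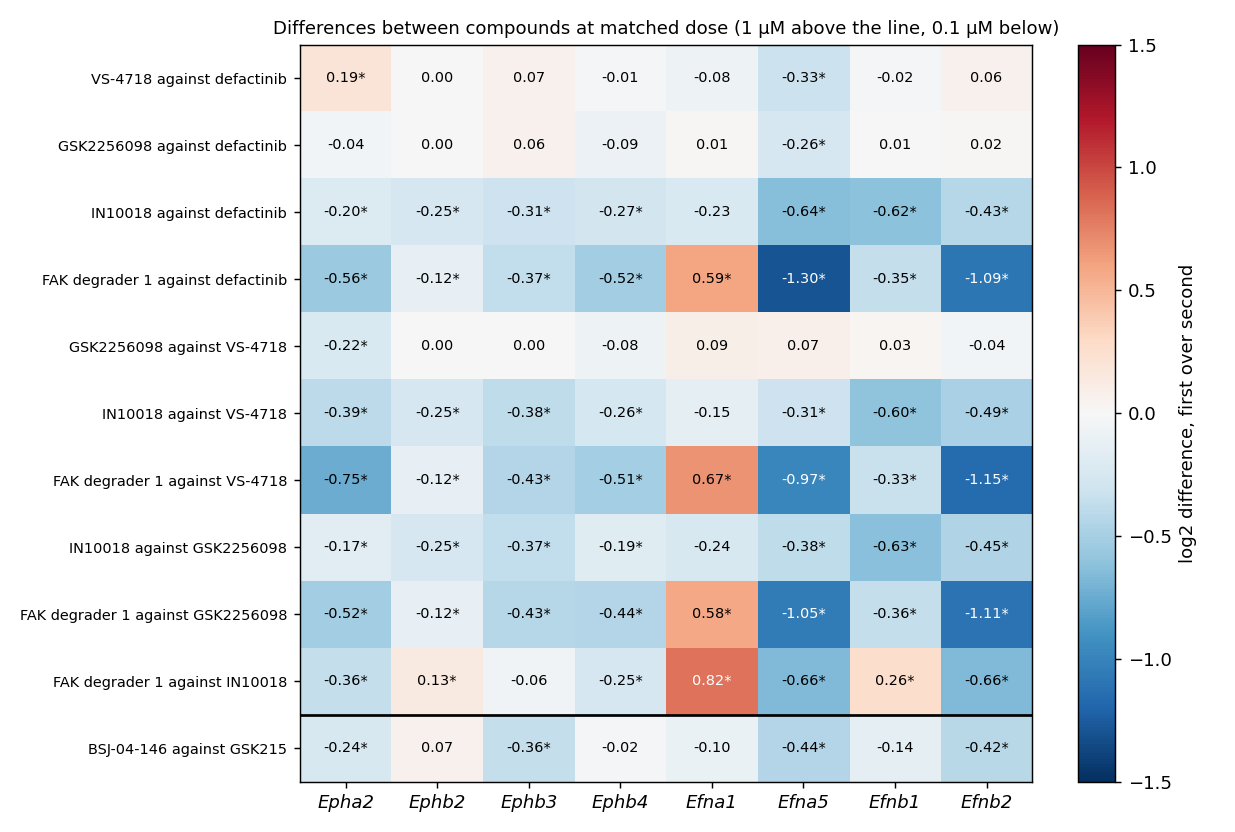
Log2 difference of each member between compounds at equal dose, first compound over second, with 1 μM pairs above the line and the 0.1 μM pair below; an asterisk marks a pair past the threshold (adjusted p under 0.05, edgeR). IN10018 is lower than the other 3 kinase inhibitors in 7 members, and the deepest color is *Efna5* for PROTAC FAK degrader 1 against defactinib (-1.30).

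Among the other 9 Eph receptors, 4 could be tested. *Ephb6*, a receptor whose kinase domain is inactive, rose from 1.82 CPM with DMSO to 7.74 with PROTAC FAK degrader 1 (log2 2.09 ± 0.16, adjusted p = 5.80e-15), 5.49 with GSK215 (log2 1.60 ± 0.17, adjusted p = 1.15e-10) and 4.70 with BSJ-04-146 (log2 1.38 ± 0.17, adjusted p = 8.39e-09). It also rose with defactinib, VS-4718 and GSK2256098 (1.65-fold, 1.78-fold and 1.52-fold). *Epha8* fell with GSK215 (log2 -1.05 ± 0.19, adjusted p = 1.32e-05) and BSJ-04-146 (log2 -1.54 ± 0.21, adjusted p = 4.64e-08), from 2.96 CPM to 1.44 and 1.02. *Epha7* rose with VS-4718 (1.31-fold) and GSK215 (1.25-fold) and fell with PROTAC FAK degrader 1 (1.40-fold) and BSJ-04-146 (1.16-fold), and its DMSO level was 12.8 CPM. *Epha1*, the remaining one, rose with PROTAC FAK degrader 1 from 1.09 to 2.30 CPM (log2 1.07 ± 0.24, adjusted p = 1.63e-04) and stood at 0.687 CPM with BSJ-04-146 (log2 -0.67 ± 0.31, adjusted p = 0.0640). All 4 other ephrins could be tested. *Efnb3*, the remaining B-type ligand, fell from 7.26 to 2.48 CPM with PROTAC FAK degrader 1, 2.90-fold (log2 -1.53 ± 0.12, adjusted p = 1.31e-14). It rose with defactinib, VS-4718 and GSK2256098 (1.30-fold, 1.34-fold and 1.30-fold), as *Efnb1* and *Efnb2* did. *Efna4*, which lies close to *Efna1* and *Efna3* on chromosome 3, rose with GSK215 (1.60-fold) and BSJ-04-146 (1.93-fold). It also passed as higher with defactinib and VS-4718. With PROTAC FAK degrader 1, the compound with which *Efna1* rose, *Efna4* stood at 5.34 CPM against 6.25 with DMSO (log2 -0.21 ± 0.13, adjusted p = 0.150).

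Genes that carry Eph signals forward, such as Src kinases, adaptors and exchange factors, formed a list of 39, of which 37 were tested. The counts past the threshold were 1 higher and 3 lower with defactinib, 16 higher and 8 lower with VS-4718, 4 higher and 4 lower with GSK2256098, 4 higher and 2 lower with IN10018, 16 higher and 13 lower with PROTAC FAK degrader 1, 7 higher and 17 lower with GSK215 and 12 higher and 14 lower with BSJ-04-146. Of all genes, 11.4% rose and 11.0% fell with defactinib, 20.4% and 18.9% with VS-4718, 6.36% and 6.09% with GSK2256098, 6.44% and 6.85% with IN10018, 34.1% and 32.7% with PROTAC FAK degrader 1, 27.4% and 27.2% with GSK215 and 27.7% and 26.9% with BSJ-04-146. Where the share of the list lay near these, as with PROTAC FAK degrader 1, the count was not read as a result about the list. The list median of the log2 change was -0.0011 with PROTAC FAK degrader 1, -0.055 with GSK215 and 0.11 with VS-4718, where the medians of all genes were 0.0045, 0.021 and 0.0048. *Fyn*, a Src family kinase bound by active Eph receptors, rose from 41.0 to 90.4 CPM with PROTAC FAK degrader 1 (log2 1.14 ± 0.041, adjusted p = 4.67e-25). It also passed as higher with defactinib, GSK2256098 and IN10018. *Arhgef15*, which encodes ephexin 5, rose from 0.346 to 1.67 CPM with PROTAC FAK degrader 1 (log2 2.23 ± 0.38, adjusted p = 3.03e-06), and its relative *Ngef*, ephexin 1, rose from 0.379 to 1.71 CPM with BSJ-04-146 (log2 2.18 ± 0.38, adjusted p = 4.59e-06). *Arhgef15* passed as higher with BSJ-04-146 too, and *Ngef* with GSK215. *Rin1*, an exchange factor for Rab5, fell with GSK215 (1.40-fold) and BSJ-04-146 (1.52-fold), and it also passed as lower with defactinib and VS-4718. *Kalrn*, an exchange factor for Rac, rose with VS-4718 (1.59-fold), GSK2256098 (1.31-fold) and GSK215 (1.61-fold). Of 21 genes for reverse signaling and shedding, all tested, 5 higher and 0 lower passed with defactinib, 9 higher and 1 lower with VS-4718, 5 higher and 0 lower with GSK2256098, 2 higher and 5 lower with IN10018, 10 higher and 7 lower with PROTAC FAK degrader 1, 13 higher and 3 lower with GSK215 and 13 higher and 1 lower with BSJ-04-146. The shares of all genes in these comparisons, higher and lower, were 11.4% and 11.0%, 20.4% and 18.9%, 6.36% and 6.09%, 6.44% and 6.85%, 34.1% and 32.7%, 27.4% and 27.2%, and 27.7% and 26.9%, in the same order. The list median was 0.048 with PROTAC FAK degrader 1, 0.24 with GSK215 and 0.28 with BSJ-04-146. *Adam10*, a protease that cuts ephrins, fell from 152 to 99.7 CPM with PROTAC FAK degrader 1 (log2 -0.61 ± 0.032, adjusted p = 1.30e-19) and was 1.10-fold lower with IN10018. *Mmp14*, a membrane protease, fell with PROTAC FAK degrader 1 (1.71-fold) and IN10018 (1.11-fold) and rose with GSK215 (1.45-fold). It also passed as higher with defactinib. *Mmp9*, a secreted protease, rose from 0.619 to 4.90 CPM with GSK215 (log2 2.98 ± 0.23, adjusted p = 3.19e-14), and *Rgs3*, a regulator of G-protein signals that binds B-type ephrins, from 2.18 to 5.46 CPM with PROTAC FAK degrader 1 (log2 1.32 ± 0.18, adjusted p = 2.62e-08). *Mmp9* also passed as higher with GSK2256098 and BSJ-04-146. Only the 2 largest changes in each direction were named per list and compound, so other calls of these genes can be missing here.

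The list for the EphB, Sox2 and N-cadherin axis had 6 genes, all tested. *Cdh2*, which encodes N-cadherin, fell from 196 to 72.2 CPM with PROTAC FAK degrader 1 (log2 -1.44 ± 0.035, adjusted p = 1.52e-30), and *Sox2* fell from 54.2 to 36.7 CPM (log2 -0.56 ± 0.047, adjusted p = 1.12e-13). *Sox2* rose with GSK215 (1.27-fold) and BSJ-04-146 (1.38-fold), whereas *Cdh2* fell 1.21-fold with BSJ-04-146. *Sox2* also passed as higher with defactinib and GSK2256098, and *Cdh2* as lower with IN10018. Only the 2 largest changes in each direction were named per compound, so further calls can be missing here. *Jup*, which encodes plakoglobin, rose with all 7 compounds, from 1.81 CPM with DMSO to 7.55 with BSJ-04-146 at the most. The counts were 2 higher and 0 lower for defactinib, 5 higher and 0 lower for VS-4718, 2 higher and 0 lower for GSK2256098, 1 higher and 1 lower for IN10018, 1 higher and 4 lower for PROTAC FAK degrader 1, 4 higher and 0 lower for GSK215 and 5 higher and 1 lower for BSJ-04-146. In either direction, 22.4%, 39.2%, 12.5%, 13.3%, 66.8%, 54.7% and 54.6% of all genes passed in the same order, and with the 3 PROTACs, where most genes passed, the counts were not read as a result about the list.

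For each member, the tested genes whose log2 CPM followed it most closely over the 24 libraries were found by Pearson correlation, as a description over libraries that share 8 groups, 1 cell line and depth differences. They were *Epb41l2* (0.97), *Prpf8* (0.97) and *Msn* (0.96) for *Epha2*, *Ppp1r9b* (0.77), *Col5a1* (0.77) and *Prkcd* (0.76) for *Ephb2*, *Col3a1* (0.97), *Mme* (0.96) and *Ntn1* (0.95) for *Ephb3* and *Clstn1* (0.97), *Crtap* (0.96) and *Pigt* (0.96) for *Ephb4*. For the ligands they were *Hyal3* (0.88), *Gm9918* (0.87) and *Ncoa1* (0.87) for *Efna1*, *Dpy19l1* (0.98), *Calr* (0.98) and *Tm9sf2* (0.98) for *Efna5*, *Sun2* (0.96), *Pmp22* (0.96) and *Cp* (0.95) for *Efnb1* and *Ext1* (0.97), *Ptprf* (0.97) and *Pcdh17* (0.97) for *Efnb2*. *Ephb2* had the weakest best match, 0.77, and also the narrowest range of group means relative to its level. *Pmp22*, among the closest to *Efnb1*, encodes a myelin protein and belongs to the SC marker list, and *Col3a1*, the closest to *Ephb3*, belongs to the fibroblast list.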

How the data were processed

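RNA from MS03 cells was sequenced in 24 libraries, 3 for each of 8 treatments. The authors deposited raw read counts for each Ensembl gene, in whole numbers and without normalization. The submitters' processing notes name Trimmomatic 0.36, STAR 2.5.2b, featureCounts of Subread 1.5.2 and GRCm38, and the strand setting and annotation release are not given in the sources used here. Columns were matched to samples by the library numbers in the labels.

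Counts were analyzed in R 4.3.3 with edgeR 4.0.16 (TMM, filterByExpr, quasi-likelihood test, a term for each group, residual df 16). Each compound was compared with DMSO, and compounds with each other at equal dose. Two-sided *P* values were corrected for 16070 genes (Benjamini-Hochberg), and an adjusted p under 0.05 was the threshold. The SE was derived from the log2 change and its F statistic. CPM was TMM-scaled. Locations and exon lengths came from GENCODE for GRCm38 and promoter windows from RefSeq. The procedure was tested on simulated data. Replicates differed by more than counting noise (chi-square per degree of freedom 1.80 to 9.44 over 24 pairs), so none was a copy of another.

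The genes and lists were chosen with earlier results of these data known. Named genes were the members, *Nf2* and *Ptk2* as checks, in each list and comparison at most the 2 largest increases and 2 largest decreases past the threshold, and 3 closest genes per member. Alternatives were library totals alone, DESeq2 1.42.0, limma 3.58.1 on log2(CPM + 4), a blocking term for replicate number, all genes without a filter, only the compared groups, leaving out each replicate and, chosen after seeing the data, libraries thinned to the smallest total. With 3 libraries a group, 1 library left out leaves 2 in that group.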

Additional observations from a re-analysis of the deposited data

How the results depend on the processing

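Alternatives were run for 116 member results, the 56 against DMSO and the 60 past the threshold between compounds, and not for the 28 member differences between compounds that did not pass. Of these 116, 95 kept their direction and side of the threshold under every alternative, leaving out each library included, and no called result reversed. Direction changed only where no call was made. With library totals alone, *Efna1* was 0.12 with GSK215 and 0.010 with BSJ-04-146, and *Efna5* 0.11 with BSJ-04-146. *Efna1* with defactinib was -0.013 with limma-trend and -0.088 with thinned libraries, and with GSK2256098 -0.054 when thinned. Leaving out single libraries gave ranges of -0.17 to 0.15 for *Efna1* with defactinib, -0.059 to 0.088 with GSK2256098 and -0.078 to 0.049 with GSK215, and -0.045 to 0.026 for *Efna5* with BSJ-04-146.

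The count of members differing between GSK2256098 and VS-4718 went from 1 to 2 with library totals alone. For IN10018 against DMSO it went from 1 to 3 when only these groups were fitted, and stood at 1 to 2 when single libraries were left out. Counts of all genes called fell from 2136 to between 1380 and 1824 for IN10018 (lowest without DMSO replicate 2, and 1395 without IN10018 replicate 3) and from 2001 to between 1298 and 1622 for GSK2256098 (lowest without its replicate 3) when single libraries were left out. The decrease of *Ephb3* with PROTAC FAK degrader 1 was lost with library totals alone (adjusted p = 0.357), DESeq2 (0.0855), no filter (0.117), the compared groups alone (0.0534) and limma-trend (0.0545). Calls for *Ephb2* and *Ephb4* with GSK215 were lost with no filter and with thinned libraries, and that for *Ephb2* also with DESeq2 (adjusted p = 0.0561). Lost too were the calls for *Ephb2* between PROTAC FAK degrader 1 and defactinib, VS-4718 or GSK2256098 with library totals alone and with thinned libraries. Thinning also ended the calls for *Ephb3* with defactinib (0.155) and *Ephb4* with GSK2256098 (0.116). *Ephb4* with BSJ-04-146 passed with library totals alone (log2 0.19), *Epha2* with defactinib and *Efna5* with GSK2256098 passed with library totals alone and with the compared groups alone, and *Epha2* and *Efnb2* with IN10018 passed with the latter. The cause of these changes was not tested.

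With the replicate number as a block, 1 of the 116 results changed its call, *Ephb3* with PROTAC FAK degrader 1 (log2 -0.15, adjusted p = 0.0505). Same-numbered libraries of different groups did not deviate together (correlations of -0.20 to 0.13 over 84 pairs of libraries). Pairs with different numbers gave -0.21 to 0.35 over 168 pairs. For 6 of 24 libraries the mean correlation with other groups was highest for their own number, so the numbers were not taken as pairs. *Epha4* had too few counts to be tested, 0 to 4 per library. Among the tested members, low counts limit *Efna1* and *Efnb1* most, with 160 to 363 and 170 to 422 counts per library.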
